A study of Mus musculus with 12 samples.

Results

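The fibrillar collagens of types I, III and V, and the type VI, XIV and XVI collagens that associate with their fibrils, were followed in liver RNA of adult mice that had been exposed to vitamin D deficiency before birth. The 10 genes were Col1a1, Col1a2, Col3a1, Col5a1, Col5a2, Col6a1, Col6a2, Col6a3, Col14a1 and Col16a1, a fixed list taken by gene symbol from the 52636 genes counted, and each of the 10 was found. VDD-F1 mice were male C57Bl/6J offspring of females kept on a vitamin D deficient (VDD) diet with added calcium gluconate from before mating to delivery. VDS-F1 mice came from females on a nutrient-matched, vitamin D sufficient (VDS) diet, and the fathers of both groups had a control diet. All mothers after delivery and all offspring after weaning received the VDS diet, so the offspring's own diet after weaning was the same in both groups. Total RNA of the left lateral lobe was sequenced at 16 weeks of age from 6 VDD-F1 and 6 VDS-F1 mice, with 1 library per mouse. Which mice were littermates is not given in the sources used here.

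Collagens are secreted proteins whose chains wind around each other into a stiff helix. Types I and III form the main fibrils of connective tissue, and type V lies within those fibrils and helps to set their width. Type VI forms beaded filaments around the fibrils and close to cells, and types XIV and XVI sit on fibril surfaces. In healthy liver these collagens are found mostly in the portal tracts, around central veins and in the capsule. They are made chiefly by stellate cells and portal fibroblasts, and excess type I and type III collagen is the material of liver fibrosis.

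Each library held 25897868 to 36403413 fragments, of which 14275793 to 20815066 were counted on genes. The 8 hepatocyte markers summed to 77994 to 106408 CPM (fragments scaled to a library of 1000000), as a liver would, and the 4 markers of pancreatic acinar cells to at most 0.694 CPM. Levels below are CPM after TMM normalization, a scaling between libraries, unless a length is named. A minimum mean count of 12 left 12453 genes to test, and all 10 collagens passed it. Their counts per library ran from 27 to 115 for Col16a1 and from 312 to 4629 for Col3a1. The study records a liver weight for 7 of the mice (VDS3 to VDS6, VDD4 to VDD6) and not for the other 5, and the comparison was repeated in each of these sets.

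The genes are spread over 7 chromosomes of GRCm38 (GENCODE M21). Col3a1 (ENSMUSG00000026043.18, chr1:45311538-45349706, plus strand) and Col5a2 (ENSMUSG00000026042.16, chr1:45374321-45503282, minus strand) are neighbours, 24614 bases apart. Col6a3 (ENSMUSG00000048126.16, chr1:90765923-90843971, minus strand) lies on the same chromosome. Col6a1 (ENSMUSG00000001119.7, chr10:76708792-76726168) and Col6a2 (ENSMUSG00000020241.13, chr10:76595762-76623630) are both on the minus strand of chromosome 10. Col1a1 (ENSMUSG00000001506.10) is at chr11:94936224-94953042 and Col1a2 (ENSMUSG00000029661.16) at chr6:4504814-4541544, both on the plus strand. Col5a1 (ENSMUSG00000026837.15, chr2:27886425-28039514), Col14a1 (ENSMUSG00000022371.15, chr15:55307750-55520803) and Col16a1 (ENSMUSG00000040690.15, chr4:130047840-130099283) are also on the plus strand. Genes on the opposite strand overlap Col5a1 (2810430I11Rik and Gm13372) and Col14a1 (1700040F17Rik). Genes on the same strand overlap Col1a2 (Gm43921), Col3a1 (Gm47302), Col5a2 (Gm38211) and Col6a3 (Gm36970). Fragments that fit several genes on the same strand are set aside as ambiguous and are in no gene's count. They made up 1.33% to 2.13% of each library, and how many came from these collagens is not known. Of the stranded counts of each collagen, 99.1% to 99.7% were on the gene's own strand.

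Promoters of 7 of the 10 genes were matched by symbol in RefSeq (GRCm38.p6). Distances are counted from the RefSeq start, which for Col1a2 and Col6a1 lies inside the GENCODE gene span given above. The Col1a2 bases shown lie wholly within that span. The 250 bases before the start are given for the 3 of the 7 with the largest and the 2 with the smallest diet difference, to show what stands in front of matched collagens with large and with small differences. Col1a1, Col5a2 and Col14a1 were not matched. Capitals mark the CCAAT box (CCAAT), the TATA box (TATAAA) and the GC box (GGGCGG), which were searched on both strands together with the AP-1 site (TGANTCA), and in the 5 sequences shown no match overlaps another.
Col6a3, chr1:90843972-90844221, minus strand: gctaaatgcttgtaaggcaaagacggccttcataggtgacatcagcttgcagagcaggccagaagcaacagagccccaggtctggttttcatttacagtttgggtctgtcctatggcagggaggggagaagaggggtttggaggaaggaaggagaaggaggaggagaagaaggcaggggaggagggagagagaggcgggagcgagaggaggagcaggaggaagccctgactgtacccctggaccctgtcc
Col3a1, chr1:45311288-45311537, plus strand: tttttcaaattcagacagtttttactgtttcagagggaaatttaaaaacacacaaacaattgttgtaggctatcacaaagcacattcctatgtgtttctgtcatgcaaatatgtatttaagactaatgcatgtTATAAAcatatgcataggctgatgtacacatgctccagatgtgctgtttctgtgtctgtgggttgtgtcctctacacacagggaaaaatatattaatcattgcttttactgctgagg
Col1a2, chr6:4505368-4505617, plus strand: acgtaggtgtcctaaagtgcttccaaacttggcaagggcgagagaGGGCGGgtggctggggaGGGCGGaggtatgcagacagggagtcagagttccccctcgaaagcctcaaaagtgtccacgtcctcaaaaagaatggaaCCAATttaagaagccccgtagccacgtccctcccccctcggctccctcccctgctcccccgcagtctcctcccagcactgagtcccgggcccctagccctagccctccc
Col5a1, chr2:27886175-27886424, plus strand: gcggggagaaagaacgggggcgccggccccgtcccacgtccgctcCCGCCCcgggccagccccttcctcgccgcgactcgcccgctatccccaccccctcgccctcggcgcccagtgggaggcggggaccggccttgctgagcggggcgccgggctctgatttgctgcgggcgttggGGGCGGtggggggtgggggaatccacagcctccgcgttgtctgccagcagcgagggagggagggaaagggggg
Col16a1, chr4:130047590-130047839, plus strand: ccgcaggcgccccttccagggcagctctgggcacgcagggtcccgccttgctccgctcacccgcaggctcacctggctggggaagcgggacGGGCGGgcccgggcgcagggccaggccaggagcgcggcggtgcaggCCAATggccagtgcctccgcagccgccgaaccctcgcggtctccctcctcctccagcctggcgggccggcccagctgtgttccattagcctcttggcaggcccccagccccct
The Col3a1 sequence holds TATAAA 117 bases before the start and has a GC content of 35.2%. The Col1a2 sequence holds CCAAT at 109 bases and GGGCGG at 205 and 188 bases before the start. GGGCGG stands in the Col5a1 sequence at 205 bases (on the minus strand) and at 73 bases before the start. The Col16a1 sequence holds CCAAT at 113 bases and GGGCGG at 159 bases before the start, and the Col6a3 sequence holds none of these letters. The GC content was 75.6% for Col16a1, 76.4% for Col5a1, 62% for Col1a2 and 57.2% for Col6a3, beside a median of 52.4% over all promoters. Of 32851 promoter sequences of this length, 33.8% hold the CCAAT box, 12.4% the TATA box, 32.7% the GC box and 6.75% the AP-1 site. Among the 7 genes matched, 2 hold the CCAAT box, 1 the TATA box and 4 the GC box, and Col6a1 holds the AP-1 site at 90 bases before its start.

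In VDD-F1 livers all 10 collagens had a higher mean and a higher median, with edgeR's fitted fold changes running from 1.33 for Col14a1 to 4.82 for Col1a1. The log2 fold change was above 1 for 7 of them, namely Col1a1, Col1a2, Col3a1, Col5a2, Col6a1, Col6a2 and Col6a3, where 3.56% of all genes tested had such a value. The median log2 fold change was 1.40 for the 10 collagens and 0.0041 for all genes. None of the 10 was a differentially expressed gene (DEG, adjusted p under 0.05 and log2 fold change above 1 or below -1) by edgeR's quasi-likelihood test, where 0.0161% of all genes were DEGs higher in VDD-F1. Their adjusted p-values ran from 0.0855 to 0.389 (Benjamini-Hochberg over 12453 genes). By the same edgeR test, 9 of the 10 had an unadjusted p under 0.05 and were higher in VDD-F1, and so did 9.55% of all genes.

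The calls depended on the test and on single mice. DESeq2, which the study's methods name, here with its Wald test, called 6 of the 10 DEGs (Col1a1, Col1a2, Col3a1, Col5a2, Col6a1 and Col6a3), beside 1.75% of all genes higher in VDD-F1. voom with sample quality weights called these and Col6a2, beside 1.45% of all genes. Without VDD1, the edgeR test called the same 7 as voom, beside 1.7% of all genes, and without VDD3 it called Col3a1 alone, beside 0.584%. With no filter on low counts edgeR called Col1a1 and Col3a1, beside 0.226% of all genes. The direction did not depend on these choices. In each of 23 alternatives all 10 collagens were higher in VDD-F1. The alternatives reuse the same libraries and are not independent, and the share of all genes that keep their direction was not counted.

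**Figure D1:**
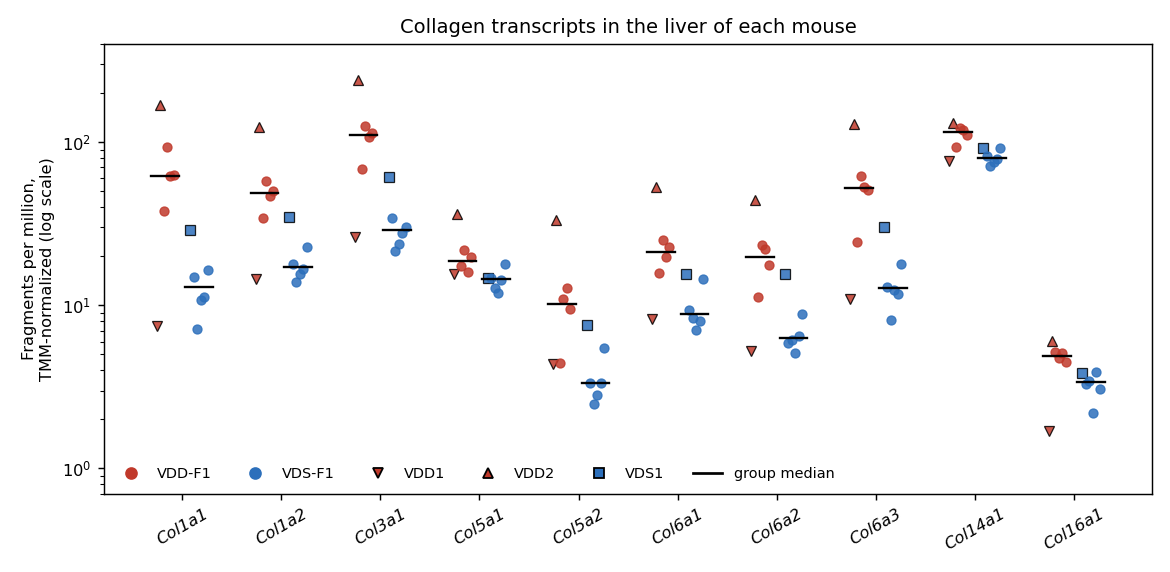
Level of each collagen in each mouse, in TMM-normalized CPM on a log axis, with 1 point per mouse and a bar at the group median (VDD-F1 red, VDS-F1 blue). VDD2 (upward triangle) is the highest of the 12 mice for all 10 genes and VDD1 (downward triangle) the lowest VDD-F1 mouse for all 10, while 4 VDD-F1 mice lie between them.

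Type I collagen is the most abundant protein of the fibrils. Its alpha 1 chain, Col1a1, was at 7.51 CPM in VDD1, 37.7 in VDD3, 62.2 in VDD5, 62.7 in VDD6, 93.4 in VDD4 and 170 in VDD2. In VDS-F1 mice Col1a1 ran from 7.15 to 29.1 CPM, with a median of 13.03. Thus 5 VDD-F1 mice were above every VDS-F1 mouse, and VDD1 was below the VDS-F1 median. The log2 fold change of Col1a1 was 2.27 ± 0.53 (SE, n = 6 each, edgeR's adjusted p = 0.0883), the largest of the 10. Col1a2, the alpha 2 chain that pairs with it, ran from 14.5 through a median of 48.7 to 124 CPM in VDD-F1 and from 13.9 through 17.3 to 34.9 CPM in VDS-F1. The groups overlapped through VDD1 and through VDD3, at 34.3 CPM just under VDS1, and the log2 fold change of Col1a2 was 1.43 ± 0.39 (SE, edgeR's adjusted p = 0.111).

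Type III collagen, encoded by Col3a1 alone, forms the fine reticular fibres of the liver. Col3a1 was at 26.4 CPM in VDD1, 68.4 in VDD3, 108 in VDD5, 114 in VDD6, 126 in VDD4 and 242 in VDD2. In VDS-F1 mice it was at 21.4 to 34.5 CPM in 5 mice and at 60.9 in VDS1. As for Col1a1, VDD1 alone lay among the VDS-F1 mice. The log2 fold change of Col3a1 was 1.78 ± 0.40 (SE, n = 6 each), with the lowest adjusted p of the 10 by edgeR, 0.0855. Without VDD2 it was 1.42 and without VDD1 1.99, with edgeR's adjusted p at 0.139 and 0.00870.

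The type V chains differed by unequal amounts. Col5a1, whose product is needed to start fibrils, ran from 15.6 through a median of 18.7 to 36.3 CPM in VDD-F1 and from 11.96 through 14.5 to 17.8 CPM in VDS-F1. Here VDD2 stood apart, 3 VDD-F1 mice were within the VDS-F1 range, and the log2 fold change was 0.56 ± 0.19 (SE, edgeR's adjusted p = 0.178). Col5a2, the partner chain, ran from 4.36 through 10.2 to 33.2 CPM in VDD-F1 and from 2.47 through 3.35 to 7.55 CPM in VDS-F1. VDD1 at 4.36 and VDD3 at 4.44 CPM were under VDS1 and VDS6, and the other 4 VDD-F1 mice were above every VDS-F1 mouse. The log2 fold change of Col5a2 was 1.59 ± 0.46 (SE, edgeR's adjusted p = 0.122). Without VDD2 it was 1.01 for Col5a2 and 0.34 for Col5a1.

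The type VI genes, whose chains assemble into 1 molecule, all had log2 fold changes above 1. Col6a1 ran from 8.21 through 21.2 to 53.2 CPM in VDD-F1 and from 7.07 through 8.85 to 15.5 CPM in VDS-F1. Col6a2 ran from 5.24 through 19.8 to 44.5 CPM and from 5.10 through 6.32 to 15.5 CPM. Col6a3, the longest of the chains, ran from 10.98 through 52.0 to 129 CPM and from 8.18 through 12.7 to 30.2 CPM. For each of them VDD1 lay within the VDS-F1 range, and VDD3 did so too for Col6a2 and Col6a3. The log2 fold changes were 1.21 ± 0.35, 1.37 ± 0.41 and 1.82 ± 0.47 (SE), with edgeR's adjusted p at 0.125, 0.133 and 0.0976. Without VDD2 they were 0.81 for Col6a1, 0.99 for Col6a2 and 1.37 for Col6a3.

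Of the collagens on fibril surfaces, Col14a1 ran from 76.8 through 115 to 131 CPM in VDD-F1 and from 71.0 through 80.3 to 92.0 CPM in VDS-F1. Its groups were separated except for VDD1, but by a small step of 0.41 ± 0.12 on the log2 scale (SE, edgeR's adjusted p = 0.127). Col16a1 had the lowest counts, at 1.70 CPM in VDD1, 4.48 to 6.00 CPM in the other VDD-F1 mice and 2.18 to 3.89 CPM in VDS-F1. VDD1 was here the lowest of all 12 mice. The log2 fold change of Col16a1 was 0.47 ± 0.25 (SE, edgeR's unadjusted p = 0.0861, adjusted p = 0.389).

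The VDD-F1 mice differed more among themselves than the VDS-F1 mice did. The 10 collagens summed to 171 CPM in VDD1, 313 in VDD3, 463 in VDD6, 465 in VDD5, 546 in VDD4 and 970 in VDD2, and to 155 to 304 CPM in VDS-F1. The SD of the log2 level was larger in VDD-F1 for all 10 genes, as it was for 60.9% of all genes tested. It ran from 0.29 for Col14a1 to 1.53 for Col1a1 in VDD-F1 and from 0.15 to 0.68 in VDS-F1. VDD2 was the highest of the 12 mice for all 10 collagens (18.6% of all genes tested), and VDD1 the lowest VDD-F1 mouse for all 10 (18.2% of all genes). VDD2, VDD4 and VDD6 were above every VDS-F1 mouse for 10 collagens, VDD5 for 9, VDD3 for 5 and VDD1 for 0, where 25.2%, 18.7%, 20.6%, 19.6%, 18.4% and 14.9% of all genes were. Among VDS-F1 mice, VDS1 was the highest for 8 of the 10 (22.5% of all genes). No collagen was higher in every VDD-F1 than in every VDS-F1 mouse, as 0.61% of all genes were. Without VDD1, 5 were (Col1a1, Col3a1, Col6a1, Col14a1 and Col16a1), beside 1.8% of all genes, and without VDS6, Col5a1 was, beside 0.851%.

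The makeup of the collagen RNA also varied by mouse. Col1a1, Col1a2 and Col3a1 together made up 28.2% of the summed collagen CPM in VDD1, 44.9% to 55.3% in the other VDD-F1 mice and 27.4% to 41.1% in VDS-F1 mice. Col14a1 made up 44.8% in VDD1, 13.5% in VDD2 and 22.3% to 30.01% in the remaining VDD-F1 mice, beside 30.2% to 45.9% in VDS-F1. These are shares of fragments, in which a long transcript counts for more.

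**Figure D2:**
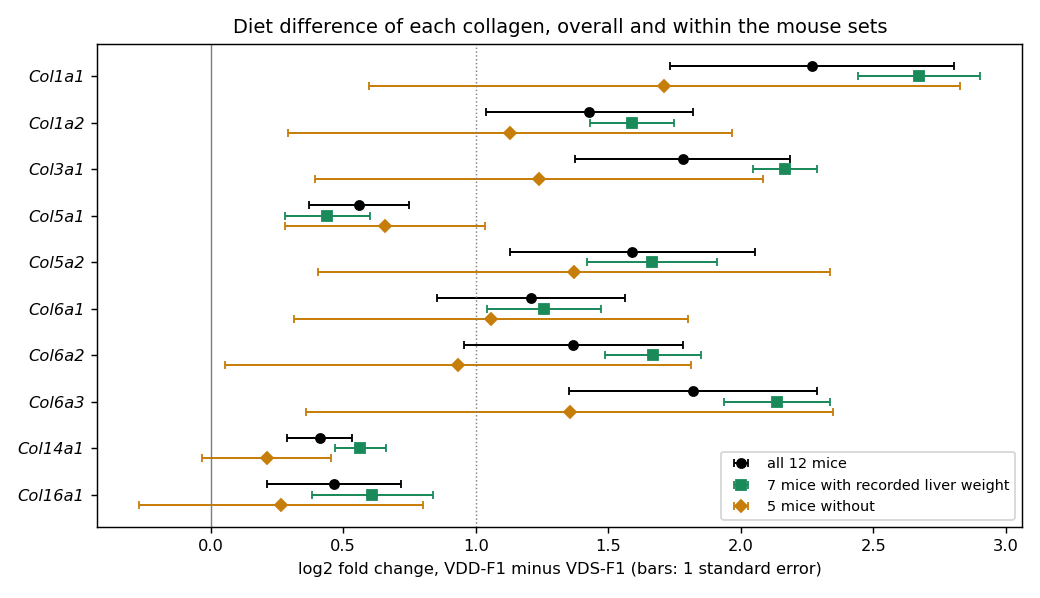
Log2 fold change of each collagen, VDD-F1 minus VDS-F1, by edgeR in all 12 mice (black circles), in the 7 mice with a recorded liver weight (green squares) and in the other 5 (orange diamonds). Bars are 1 standard error, the dotted line marks a log2 fold change of 1, and the bars of the 5 mice are the longest for all 10 genes.

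Within both sets of mice the mean was higher in VDD-F1 for all 10 collagens. Among the 7 mice with a recorded liver weight, 9 of the 10 were higher in every VDD-F1 than in every VDS-F1 mouse, where 12% of all genes were, and Col5a1 was the exception. For Col3a1, the 3 VDD-F1 mice of this set were at 108 to 126 CPM and the 4 VDS-F1 mice at 21.4 to 30.4 CPM. There, 7 of the 10 were DEGs by edgeR's quasi-likelihood test (3.07% of all genes), with Col1a1 at 2.67 ± 0.23, Col3a1 at 2.17 ± 0.12 and Col6a3 at 2.14 ± 0.20 on the log2 scale (SE). Their adjusted p-values were 3.21e-05 for Col1a1, 1.05e-06 for Col3a1 and 5.71e-05 for Col6a3 by edgeR.

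Among the other 5 mice, VDD1 to VDD3 and VDS1 and VDS2, the VDS-F1 values lay within the VDD-F1 range for 8 of the 10 collagens, all but Col5a1 and Col5a2. Col3a1 was at 26.4, 68.4 and 242 CPM in the 3 VDD-F1 mice and at 34.5 and 60.9 CPM in the 2 VDS-F1 mice. Only Col5a1 did not overlap between the groups in this set, beside 8.96% of all genes, and none of the 10 was a DEG by edgeR, nor was any other gene. None of the 10 had an unadjusted p under 0.05 by edgeR there, where 2.05% of all genes did and were higher in VDD-F1. The log2 fold changes ran from 0.21 for Col14a1 to 1.71 for Col1a1, with an SE of 1.12 for Col1a1. The diet difference itself was not shown to differ between the sets. The interaction of diet and set passed for 0 of the 10 by edgeR (0.0883% of all genes) and by DESeq2, with edgeR's unadjusted p from 0.165 to 0.792, where 9.01% of all genes had one under 0.05. The difference between the sets for Col1a1 was 0.96 ± 1.04 (SE, log2), too wide to tell a large difference from none with these mice.

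Compared per length of transcript, which allows levels of different genes to be set side by side, the collagens had another order in the groups. In VDS-F1, Col14a1 had the highest level with a median of 12.4 CPM per kilobase of its longest coding transcript, followed by Col3a1 with 5.23 and Col1a2 with 3.23. Col1a1 and Col6a1 followed at 2.20 and 2.16, Col5a1, Col6a2 and Col6a3 at 1.73, 1.36 and 1.26, and Col16a1 and Col5a2 at 0.647 and 0.505. Of these neighbours, Col14a1 and Col3a1, Col3a1 and Col1a2, Col6a1 and Col5a1, and Col6a3 and Col16a1 differed by more than the larger of their SDs on the log2 scale. The others did not. In VDD-F1, Col3a1 had the highest median at 20.0 CPM per kilobase, then Col14a1 at 17.8, Col1a1 at 10.5 and Col1a2 at 9.11. No neighbours in that order differed by more than the larger of their SDs. With the length of all annotated exons in place of the longest transcript, an alternative chosen after the data had been seen, Col14a1 was first in both groups, at 11.5 and 16.4 CPM per kilobase, and Col1a2 dropped to the sixth place in both.

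Ratios between chains within a library need no scaling between libraries. The ratio of Col1a1 to Col1a2, chains that are built into the type I molecule at a fixed proportion, had a median of 0.640 in VDS-F1 and 1.16 in VDD-F1 (levels per kilobase). It was 0.465 to 0.752 in VDS-F1, 0.470 in VDD1 and 0.991 to 1.46 in the other 5 VDD-F1 mice. The mean log2 ratio differed by 0.68 (exact permutation test, two-sided, p = 0.0260, adjusted over 5 ratios 0.0794, where 924 splits allow no p under 0.00216). Col3a1 relative to Col1a1 was lower in 5 of 6 VDD-F1 mice than in every VDS-F1 mouse, at 1.43 to 1.94 against 1.96 to 3.19, while VDD1 had the highest ratio of all 12 at 3.73. Its mean log2 ratio differed by -0.32 (exact permutation p = 0.182, adjusted 0.227).

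For type V, the ratio of Col5a1 to Col5a2 had a median of 3.35 in VDS-F1 and 1.61 in VDD-F1, with 0.861 in VDD2 and 3.08 in VDD3 at the ends. The difference of -0.83 in mean log2 ratio did not pass the adjustment (exact permutation p = 0.0476, adjusted 0.0794). Within type VI, Col6a1 to Col6a2 had medians of 1.56 and 1.41 in VDS-F1 and VDD-F1, with a difference of -0.15 (exact permutation p = 0.370, adjusted 0.370). Col6a3 to Col6a1 had medians of 0.579 and 0.948, with a difference of 0.52 (exact permutation p = 0.0411, adjusted 0.0794), and 4 VDD-F1 mice were above every VDS-F1 mouse. So none of the 5 ratios passed the adjusted threshold with all 12 mice. Without VDD1, 4 of them did, with adjusted exact permutation p at 0.0108 for Col1a1 to Col1a2 and for Col3a1 to Col1a1, 0.0352 for Col5a1 to Col5a2 and 0.0289 for Col6a3 to Col6a1. No ratio passed when any of the other 11 mice was left out in turn. In the 7 mice with liver weights the 4 differences came to 1.097, -0.53, -1.26 and 0.89, with exact permutation p at 0.0286, 0.0571, 0.0286 and 0.0571 and an adjusted value of 0.0714 for each. The smallest p that 3 against 4 mice allow is 0.0286. In the other 5 mice they came to 0.15, -0.083, -0.23 and 0.056.

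**Figure D3:**
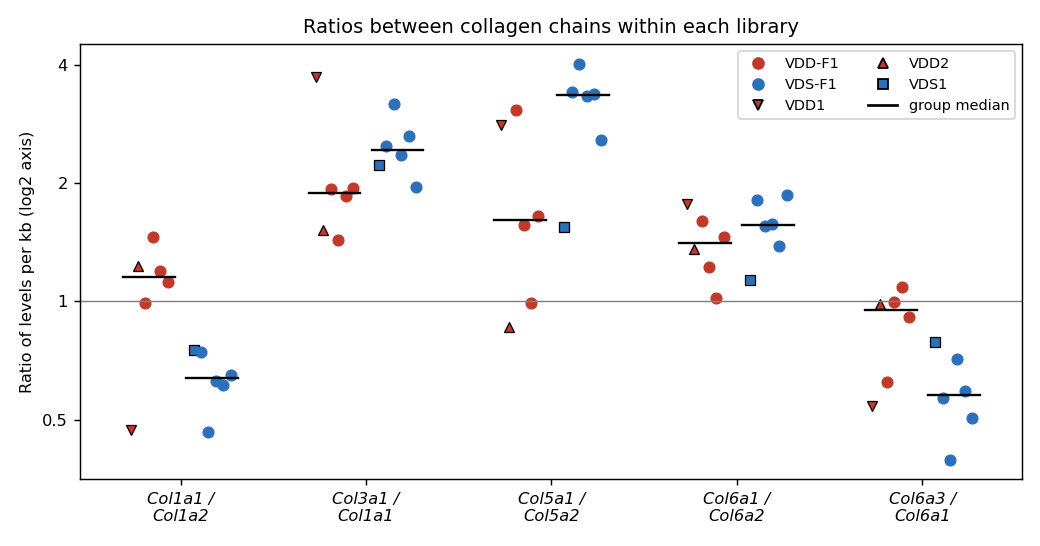
Ratio of the levels of 2 collagen chains in each library, per kilobase of the longest coding transcript, on a log2 axis, with 1 point per mouse and a bar at the group median (VDD-F1 red, VDS-F1 blue). VDD1 (downward triangle) is at 0.470 for Col1a1 to Col1a2, where the other 5 VDD-F1 mice are at 0.991 to 1.46, above all VDS-F1 mice.

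Other collagens were looked at by list. Of the 6 other fibrillar collagens, 2 passed the filter. Col27a1 was lower in VDD-F1, with a log2 fold change of -0.79 ± 0.28 (SE) and an adjusted p of 0.197 by edgeR, and Col5a3 was at -0.11 ± 0.21, from -0.35 to 0.0042 with 1 mouse left out. With all 12 mice neither was higher in VDD-F1 by its mean or its median. Of 28 further collagens 9 were tested, and 5 had an unadjusted p under 0.05 by edgeR, all higher in VDD-F1. Col4a4 and Col4a5, chains of basement membrane collagen, had log2 fold changes of 2.31 ± 0.44 and 1.06 ± 0.28 (SE, edgeR's adjusted p = 0.0627 and 0.0998). Col4a4 was at 0.208 to 0.938 CPM in VDS-F1 and 1.20 to 4.12 CPM in VDD-F1, so that its groups did not overlap, as in 0.61% of all genes. With a mean of 0.485 CPM in VDS-F1, Col4a4 reached the filter through its VDD-F1 counts, so its difference is a description only.

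The genes that make, finish, bind, sense and break down collagen were counted by lists as well. By edgeR, 9.55% of all genes tested were higher in VDD-F1 at an unadjusted p under 0.05, against which the counts of each list are to be read. At the same p, 6.29% were lower. With all 12 mice and the filter at a mean count of 12, edgeR called no DEG in these lists, in those of the other collagens or in the marker lists below. With no filter it called 4, namely Adamts2, Eln, Mfap4 and Col4a4 (0.226% of all genes), and the same 4 without VDD3 (0.584%). Without VDD1 it called 16 higher in VDD-F1 (1.7% of all genes) and Col27a1 lower. DESeq2 called 13 with all 12 mice, each higher in VDD-F1 (1.75% of all genes). Of these, 3 were among the portal fibroblast markers and 0 to 2 in each other list. voom called 13 higher (1.45% of all genes) and 1 lower. In the 7 mice with a recorded liver weight, edgeR called 27 higher (3.07% of all genes) and 5 lower. Col27a1, Ecm1, Hhip, Postn and Timd4 were among the genes called there. Of the 20 genes of procollagen folding and modification 19 were tested. With edgeR's unadjusted p under 0.05, 4 were higher in VDD-F1 and 1 was lower, and the median log2 fold change was 0.027. Serpinh1, the collagen chaperone HSP47, ran from 13.3 through 27.7 to 40.1 CPM in VDD-F1 and from 14.3 through 15.3 to 18.5 CPM in VDS-F1 (log2 fold change 0.83 ± 0.21, SE, edgeR's adjusted p = 0.0947). P3h4, a partner of the lysyl hydroxylases, was at 1.19 ± 0.35 (edgeR's adjusted p = 0.128). With a mean of 0.450 CPM in VDS-F1, P3h4 reached the filter through its VDD-F1 counts.

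For propeptide removal and cross-linking, 6 of 10 tested genes were higher with edgeR's unadjusted p under 0.05 and 0 lower, of 13 on the list. Adamts2, which cuts the amino-terminal propeptide from procollagens, ran from 5.24 through 20.5 to 37.7 CPM in VDD-F1 and from 4.19 through 5.95 to 8.54 CPM in VDS-F1. Its log2 fold change was 1.76 ± 0.35 (SE, edgeR's adjusted p = 0.0640), and 5 VDD-F1 mice were above every VDS-F1 mouse. Pcolce, which speeds up removal of the carboxyl-terminal propeptide, was at 0.88 ± 0.21 (edgeR's adjusted p = 0.0918). Of 15 matrix proteins that bind fibrils 13 were tested, and 8 were higher and 0 lower by the same measure. Ogn (osteoglycin) was at 1.19 ± 0.29 and Tgfbi, a collagen-binding matrix protein, at 0.68 ± 0.17 (log2, SE, edgeR's adjusted p = 0.0905 and 0.0969).

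Of 13 collagen receptors 8 were tested, and 5 were higher and 0 lower with edgeR's unadjusted p under 0.05. Mrc2, the receptor that takes up collagen for breakdown, was at 1.67 ± 0.50 and Ddr2, a receptor kinase for fibrillar collagen, at 0.64 ± 0.21 (log2, SE, edgeR's adjusted p = 0.133 and 0.159). Of 12 genes of collagen breakdown 6 were tested, and 3 were higher and 0 lower. They include Mmp2, a gelatinase, at 1.69 ± 0.51, and Timp3, an inhibitor of such enzymes, at 0.89 ± 0.30 (edgeR's adjusted p = 0.133 and 0.172). All 18 genes of Tgf-beta and Pdgf signalling were tested, with 4 higher and 0 lower and a median log2 fold change of 0.29. Ltbp1, which holds latent Tgf-beta in the matrix, was at 1.13 ± 0.38 and the receptor Pdgfra at 0.89 ± 0.36 (edgeR's adjusted p = 0.170 and 0.249). Without VDD2, Pdgfra was at 0.48.

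**Figure D4:**
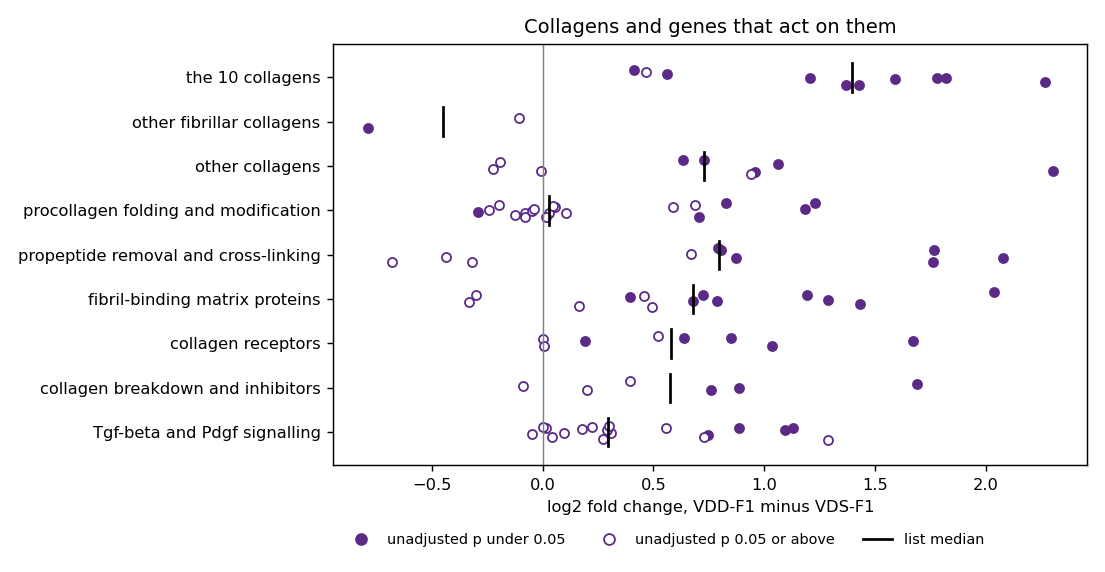
Log2 fold change, VDD-F1 minus VDS-F1, of the 10 collagens and of each tested gene of 8 lists, with 1 point per gene, filled where edgeR's unadjusted p is under 0.05, and a bar at the list median. The 10 collagens are all above 0 with a median of 1.40, the folding genes are centred near 0, and the other 7 lists have medians from -0.45 to 0.80.

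Markers of the cells that make collagen, and of other liver cells, were set beside the 10 genes. In bulk tissue, more cells of a type and more RNA per cell cannot be told apart. The 8 portal fibroblast markers, of which 5 were tested, summed to 7.95 CPM in VDD1, 9.26 in VDD3 and 25.7 to 48.7 CPM in the other 4 VDD-F1 mice, beside 6.94 to 11.9 CPM in VDS-F1. Of the 5, 3 had an unadjusted p under 0.05 by edgeR. They were Mfap4 and Eln, proteins of elastic fibres, at 2.29 ± 0.46 and 2.18 ± 0.53, and Fbln2, a matrix glycoprotein, at 1.29 ± 0.35 (log2, SE, edgeR's adjusted p = 0.0683, 0.0917 and 0.109). DESeq2 called these 3 DEGs, with adjusted p at 0.000171, 0.0113 and 0.0170. The other tested members were Thy1 at 0.43 ± 0.39 and Entpd2 at 0.15 ± 0.39 (edgeR's adjusted p = 0.629 and 0.897), and with 1 mouse left out Thy1 ran from 0.20 to 0.57 and Entpd2 from -0.26 to 0.28. Gli1, Clec3b and Pi16 were under the filter, at 0.501 CPM or less in each library. The 9 stellate cell markers, all tested, summed to 266 to 411 CPM in VDD-F1 and 346 to 418 CPM in VDS-F1. By edgeR's unadjusted p under 0.05, 2 of the 9 were higher, Cygb at 1.38 ± 0.35 and Hand2 at 0.42 ± 0.15, and 1 was lower, Ecm1 at -0.72 ± 0.19 (log2, SE, edgeR's adjusted p = 0.0970, 0.199 and 0.1004). Hhip was at -1.30 ± 0.71, and at -2.13 without VDD1. Lrat, the enzyme that stores retinol, was at 0.12 ± 0.21, Reln at 0.093 ± 0.14 and Colec11 at 0.016 ± 0.11 (log2, SE), and each of these 3 turned negative when some single mouse was left out, down to -0.015, -0.043 and -0.070.

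The 6 markers of activated myofibroblasts, 4 of them tested, summed to 12.4 to 27.7 CPM in VDD-F1 and 8.52 to 22.01 CPM in VDS-F1, with 1 of the 4 at an unadjusted p under 0.05 by edgeR. That was Lox, a cross-linking enzyme, at 2.08 ± 0.69 (log2, SE, edgeR's adjusted p = 0.169). With a mean of 0.494 CPM in VDS-F1, Lox reached the filter through its VDD-F1 counts. Acta2 (smooth muscle actin) was at 0.82 ± 0.45, Tagln at 0.42 ± 0.35 and Postn (periostin) at -0.33 ± 0.35 (edgeR's adjusted p = 0.394, 0.591 and 0.687). With 1 mouse left out, Acta2 ran from 0.64 to 1.35 (without VDS1), Tagln from 0.26 to 0.76 and Postn from -0.57 to -0.16. Acta2 was a DEG by voom, where 1.45% of all genes were DEGs higher in VDD-F1. In the 7 mice with a recorded liver weight edgeR called Acta2, Lox and Postn, where 3.07% of all genes were DEGs higher in VDD-F1. The 6 cholangiocyte markers summed to 23.9 CPM in VDD1, 40.7 in VDD3, 58.2 to 116 CPM in the other 4 VDD-F1 mice and 27.8 to 51.5 CPM in VDS-F1. Of 5 tested, 3 were higher in VDD-F1 at edgeR's unadjusted p under 0.05. They were Epcam, an adhesion protein of epithelia, at 1.06 ± 0.46, the transcription factor Sox9 at 0.52 ± 0.24 and Spp1 (osteopontin) at 0.83 ± 0.35 (log2, SE, edgeR's adjusted p = 0.287, 0.311 and 0.275). Without VDD2, Epcam was at 0.65 and Spp1 at 0.47. Mesothelial markers of the capsule ran from 3.52 to 24.5 CPM in VDD-F1 and from 2.34 to 18.3 CPM in VDS-F1. Smooth muscle markers summed to 3.39 to 7.36 and 3.07 to 5.63 CPM, endothelial markers to 223 to 276 and 218 to 300 CPM, Kupffer cell markers to 79.8 to 231 and 122 to 241 CPM, and lymphocyte markers to 0.527 to 7.99 and 1.14 to 3.01 CPM. By the same unadjusted p, 2 of 6 Kupffer cell markers were lower, Clec4f at -0.50 ± 0.20 and Timd4 at -0.81 ± 0.32 (log2, SE). The others went both ways, with Vsig4 at -0.31, Cd5l at -0.18, Adgre1 at 0.26 and Marco at 0.59. By that p, 1 of the endothelial list was higher (Lyve1) and 2 were lower (Stab2 and Clec4g). Higher too was 1 each among mesothelial (Gpm6a) and smooth muscle markers (Synpo2). Synpo2, with a mean of 0.530 CPM in VDS-F1, reached the filter through its VDD-F1 counts. Of the hepatocyte markers 1 was lower by that p, Hnf4a at -0.29. Cps1 and Asgr1 were at -0.14 each, Ttr at 0.011, Tat at 0.021, Alb and Apoa1 at 0.24 each and Ass1 at 0.26. The hepatocyte sums had medians of 100608 CPM in VDD-F1 and 85214 CPM in VDS-F1. Adipocyte markers were near 0, at 1.07 to 3.84 and 1.35 to 2.86 CPM, with Lep and Retn at 0 in all 12 libraries. The part of these cell types in the collagen differences was not tested.

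**Figure D5:**
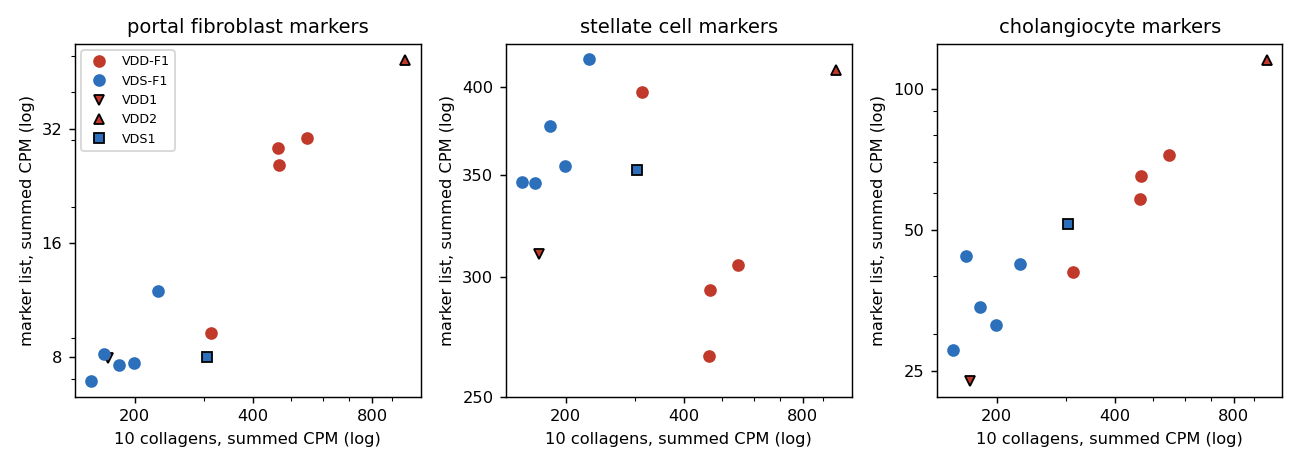
Summed CPM of 3 marker lists against the summed CPM of the 10 collagens, with 1 point per mouse (VDD-F1 red, VDS-F1 blue) and log axes. The 4 VDD-F1 mice with the highest collagen sums, 463 to 970 CPM, have portal fibroblast sums of 25.7 to 48.7 CPM. Their cholangiocyte sums are 58.2 to 116 CPM, and both sums lie above those of all VDS-F1 mice. The stellate cell sums, made up mostly of Reln and Ecm1, show no such step. Markers at lower levels, such as Cygb (higher in VDD-F1) and Hhip (lower), weigh little in them.

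Likeness between the collagens was measured across the 12 libraries, which pool both groups. Pearson's r between the log2 level of a collagen and the mean of the other 9 (each scaled to the same SD) was 0.947 to 0.996 for 8 genes, 0.859 for Col5a1 and 0.767 for Col16a1. Without the 2 libraries farthest from the median, r was 0.70 for both, and within the 6 VDS-F1 mice it was 0.658 and 0.397, beside 0.788 and 0.818 within the 6 VDD-F1 mice. The non-member genes most like the mean profile of the 10 were, in order, Adamts2, Unc5b, Cygb, Tagln2, Timp2, Flna, Bgn, Pam, Myof and Adamts5, with r from 0.979 to 0.970. Adamts2 had r = 0.979 and Spearman's rho = 0.993, and r = 0.972 without the 2 libraries farthest from the median. These values describe 12 libraries in which VDD2 is at one end, and they share each library's depth and scaling. Bgn, the proteoglycan biglycan that binds type I and type VI collagen, ran from 80.4 through 186 to 278 CPM in VDD-F1 and from 92.2 through 98.9 to 124 CPM in VDS-F1. Its lowest VDD-F1 value lay below the VDS-F1 median, and its log2 fold change was 0.79 (edgeR's adjusted p = 0.125).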

How the data were processed

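Liver RNA-seq libraries of 6 VDD-F1 and 6 VDS-F1 male mice were analysed, 1 per mouse. After trimming, the authors mapped the reads with STAR to mm10 (GRCm38, GENCODE M15). They deposited the raw count of fragments on each gene, not normalized, for both strands together and for each strand. The version of STAR is not given in the sources used here. The reverse-strand count was used, and fragments that map to several places are not in it. Symbols and positions came from GENCODE M21. The 10 collagens and all gene lists were chosen with earlier results of these data known.

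The groups were compared in R 4.3.3 with edgeR 4.0.16 (TMM, quasi-likelihood test in the legacy form, VDD-F1 minus VDS-F1) for genes whose mean count reached 12, with Benjamini-Hochberg adjustment over all genes tested. The thresholds (adjusted p under 0.05, log2 fold change above 1 or below -1) follow the study's methods, which name DESeq2. The SE of an edgeR log2 fold change was derived as its absolute value divided by the square root of the test's F statistic. Alternatives were DESeq2 1.42.0, voom with sample quality weights (limma 3.58.1), edgeR's newer form, DESeq2 size factors, counts without strand, other filters, the mouse set as a covariate or alone, a replicate block and each mouse left out. Ratios of chains used log2 of counts plus 0.5 and exact permutation tests over mice. Correlations used log2 CPM with a prior count of 2. Tables and figures were made in Python 3.11.15 with pandas 2.3.3, NumPy 2.4.6, SciPy 1.17.1 and matplotlib 3.10.9.

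All 10 collagens are named with values. Of each list fixed for the pathway, the 2 genes with the smallest unadjusted p are named, and of the marker lists a few chosen after their values were seen. The 10 other genes with the highest Pearson r to the collagens' mean profile are named. The tests were also run on simulated counts of this comparison with 12453 genes. There a call was an adjusted p under 0.05, without the fold change threshold. On these counts edgeR called 93 of 96 genes changed 4-fold and 76 of 97 changed 2-fold, with 4 false calls. DESeq2 called 95 and 83 of them, with 11 false calls. The simulation gave each gene the same dispersion in both groups, whereas the 10 collagens varied more in VDD-F1. No 2 libraries of a group agreed within sampling noise.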

Additional observations from a re-analysis of the deposited data

Results flagged for a closer look

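Dixon's test at 95% was applied in 20 groups of 6 values, 1 group for each collagen and diet. It took the gap between the highest or lowest mouse and its nearest neighbour. Chance alone flags about 1 in 20 groups only where values are independent and normally distributed. The values here were CPM not taken to the log scale, from genes that vary together, so that rate does not hold for them. In VDD-F1, VDD2 stood above the others for Col5a1 (36.3 CPM, with the next mouse at 21.9) and for Col5a2 (33.2 CPM, the next at 12.8). VDD1 stood below the others for Col16a1 (1.70 CPM, the next at 4.48). In VDS-F1, VDS1 stood above the others for Col3a1 (60.9 CPM, the next at 34.5) and for Col6a2 (15.5 CPM, the next at 8.80). All of these mice belong to the set of 5 without a recorded liver weight. Without VDD2, the log2 fold change was 0.34 for Col5a1 and 1.01 for Col5a2 by edgeR's quasi-likelihood test (adjusted p = 0.275 and 0.236). By the same test it was 0.63 for Col16a1 without VDD1 (adjusted p = 0.0662). Without VDS1 it was 2.05 for Col3a1 and 1.68 for Col6a2 (edgeR's adjusted p = 0.0760 and 0.0995).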

How the results depend on the processing

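The 10 collagens were higher in VDD-F1 in all 230 combinations of gene and alternative, which reuse the same libraries. In 30 of these combinations a collagen was a DEG. With all 12 mice and the filter at a mean count of 12, none was by edgeR's quasi-likelihood test. The number of DEGs among the 10 was 6 by DESeq2, 7 by voom, 2 with no filter and 7 in the mice with a recorded liver weight, and 0 to 7 when 1 mouse was left out. It was 0 under the other alternatives. Among all genes there were 5 DEGs, and 253 by DESeq2, 17 by edgeR's newer form, 252 by voom, 70 with no filter, 21 with the mouse set as a covariate, 536 in the mice with a recorded liver weight and 0 in the others, and 0 to 260 (without VDD1) when 1 mouse was left out. Collagens without overlap between the groups numbered 9 in the mice with a recorded liver weight (12% of all genes) and 1 in the others (8.96%), and 0 to 5 when 1 mouse was left out, with 5 without VDD1 (1.8% of all genes). The log2 differences of the ratios, with 1 mouse left out, ran from 0.58 to 0.91 for Col1a1 to Col1a2, from -0.51 to -0.23 for Col3a1 to Col1a1, from -1.02 to -0.65 for Col5a1 to Col5a2, from -0.23 to -0.059 for Col6a1 to Col6a2 and from 0.41 to 0.65 for Col6a3 to Col6a1. The cause of these changes was not tested.

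The replicate numbers mark different mice, and same-numbered mice did not deviate together (r from -0.076 to 0.103 across genes, with 0 of 6 mice closest to the mouse of its own number). A replicate block gave 0 DEGs among the 10 collagens and 17 among all genes, and no ratio passed under it.

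Col16a1 and Col5a2 had the lowest counts, 27 and 36 in their lowest libraries, so their levels there are the least precise. How much of the spread between mice is counting noise was not tested. The level per kilobase depends on the transcript length taken, which moved Col1a2 in both groups, and Col3a1, Col6a2 and Col16a1 in VDS-F1, by more than their SD on the log2 scale.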
